A study of Mus musculus with 9 samples.

Results

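The 9 genes described here handle vitamin A and its active form, retinoic acid: Crabp1, Crabp2, Rbp4, Stra6, Aldh1a1, Aldh1a2, Aldh1a3, Cyp26a1 and Cyp26b1. They were taken by their gene symbols, as 9 of the 18193 genes measured, and each was read from the brightest of its probe sets, by the mean of 9 arrays. Crabp1 and Crabp2 encode cytosolic proteins that bind retinoic acid. Rbp4 encodes the carrier of retinol in blood plasma, and Stra6 encodes a membrane receptor for that carrier. The 3 Aldh1a genes encode the retinaldehyde dehydrogenases that make retinoic acid, and the Cyp26 genes encode cytochrome P450 enzymes that break it down. Retinoic acid acts through nuclear receptors on gene transcription. In mouse skin, Crabp1 is known as a gene of hair follicle mesenchyme.

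The RNA came from cells sorted from the back skin of 3 neonatal mice (numbers 2, 4 and 5) on postnatal day 2, with 1 array for each mouse and gate. The R3 cells were GFP+CD133+, by the labels papilla cells of guard, awl and auchene hairs. Gate R2 held GFP-CD133+ cells, described as papilla cells of zigzag hairs, and gate R1 held GFP-CD133- cells, the dermal pool with no papilla population. The dermal papilla is the mesenchymal cluster at the base of a hair follicle; CD133 is the product of Prom1, and GFP in such mice is known as a reporter of Sox2. The sources used here give no strain, sex or GFP allele, and all 3 gates came from the same 3 animals.

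Values are log2 expression values, and their array medians lay between 6.13 and 6.20. As a guide to background, 43 probe sets of olfactory receptors were ranked on each array and their 95th percentile was taken; it lay between 5.02 and 5.47. The gates followed their sort genes: Prom1 averaged 10.32 in R3, 11.85 in R2 and 7.43 in R1, and Sox2 averaged 10.66 in R3, 7.08 in R2 and 4.19 in R1. Of 26 papilla genes, among them Prom1 and Sox2, 25 were higher in R3 than in R1 and 17 were higher in R2 than in R1 (limma, adjusted p under 0.05). Each gate also differed in markers of other cells, as the plot of marker lists shows. The 5' to 3' balance of the beta-actin control probe sets moved with the gates too, with a 3' minus 5' difference larger in both papilla gates than in R1, at 0.12 to 0.20 in R3, 0.11 to 0.22 in R2 and 0.04 to 0.07 in R1. That of the Gapdh control overlapped between gates, at 2.68 to 3.02 in R3, 2.57 to 2.85 in R2 and 2.63 to 2.97 in R1.

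**Figure D1:**
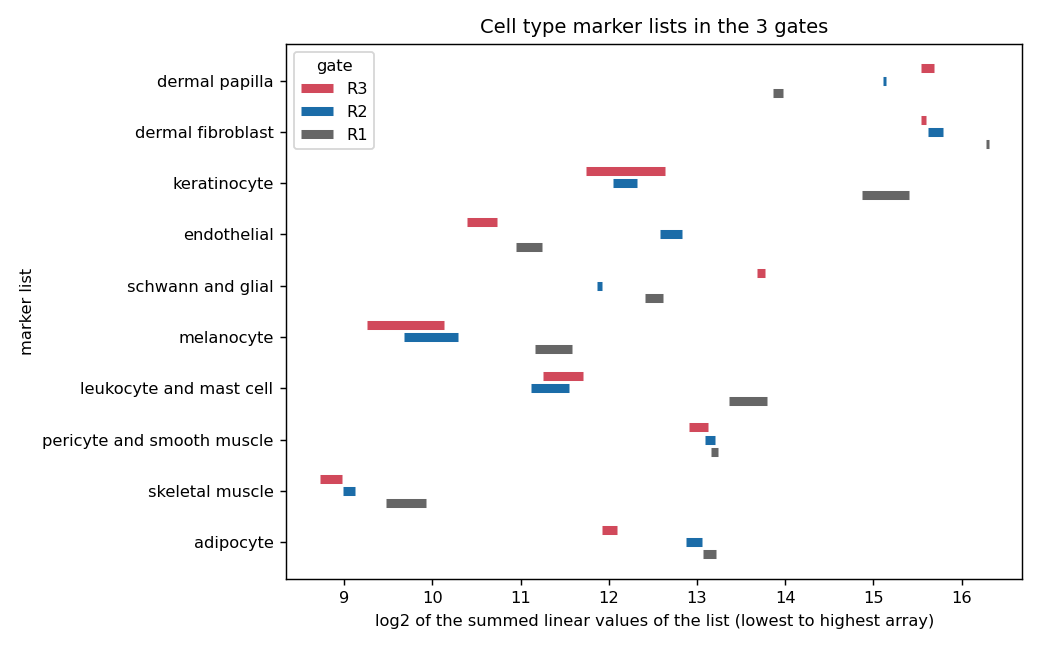
Summed level of 10 cell type marker lists (x axis, log2 of the summed linear values, lowest to highest of the 3 arrays of a gate) in gates R3, R2 and R1. The endothelial list spans 10.39 to 10.74 in R3, 12.59 to 12.83 in R2 and 10.95 to 11.24 in R1, and the keratinocyte list is highest in R1, at 14.87 to 15.40.

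Of the 9 genes, 5 (Crabp1, Crabp2, Rbp4, Aldh1a3 and Cyp26b1) lay above the background guide of their own array on all 9 arrays. Stra6 and Cyp26a1 lay above it on 0 of 9 arrays, and Aldh1a1 and Aldh1a2 each on 1 of 9, in R1. Both papilla gates had more Crabp2 and Aldh1a3 RNA signal than the dermal pool, and less Rbp4. Between the 2 papilla gates, limma called 0 of the 9 genes, where it called 5.03% of all genes. A list of 9 genes is too short to tell 0 calls from that share.

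**Figure D2:**
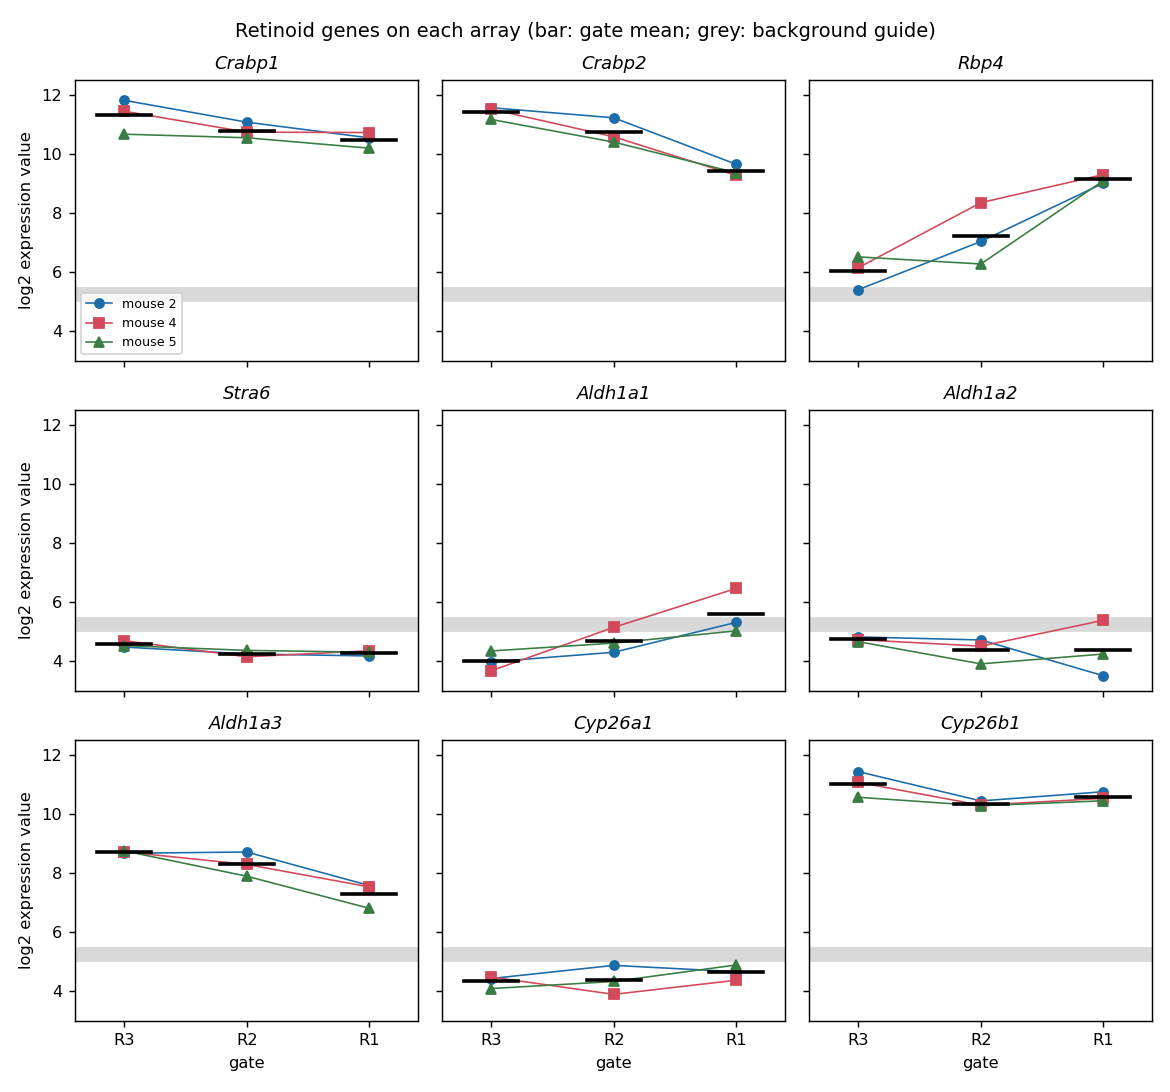
Log2 expression value (y axis) of each of the 9 genes on each array in gates R3, R2 and R1 (x axis). Lines join the arrays of a mouse, black bars are gate means over 3 mice, and the grey band is the range of the background guide (5.02 to 5.47); Crabp2 and Aldh1a3 step down toward R1, Rbp4 steps up, and Stra6 and Cyp26a1 lie under the band in all gates.

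Crabp2, whose protein carries retinoic acid toward its nuclear receptors, had values of 11.55, 11.51 and 11.16 in R3, 11.21, 10.57 and 10.39 in R2, and 9.64, 9.26 and 9.36 in R1 (mice 2, 4 and 5). Every R3 and R2 array lay above every R1 array, while R3 and R2 overlapped by 1 array. Crabp2 was 3.96-fold higher in R3 than in R1 (log2 change 1.99, standard error 0.22, n = 3 per gate, limma adjusted p = 0.000265). It was 2.47-fold higher in R2 than in R1 (log2 change 1.31, standard error 0.22, adjusted p = 0.00412). Schwann and glial markers were also higher in R3 than in R1, with 6 of 10 genes called and sums of 13.68 to 13.77 in R3 and 12.41 to 12.62 in R1, while 4 of 10 were lower in R2 than in R1. Their part in the Crabp2 result was not tested. In bulk RNA of sorted cells, more cells of one kind and more RNA per cell cannot be told apart.

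Between R3 and R2 the Crabp2 change was 0.68 (95% interval 0.19 to 1.17) and was not called (limma adjusted p = 0.126). The 3 mice gave differences of 0.34, 0.94 and 0.77, so R3 was the higher gate in 3 of 3. Without the R2 array of mouse 2, the highest of that gate, this change was 0.92 with a limma adjusted p of 0.0297.

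Crabp1, the close relative of Crabp2, had values of 11.81, 11.44 and 10.66 in R3, 11.07, 10.73 and 10.54 in R2, and 10.54, 10.72 and 10.19 in R1. Its order was that of Crabp2, but the R3 array of mouse 5 lay within the range of R1 and all neighbouring gates overlapped. The R3 minus R1 change was 0.82 (95% interval 0.19 to 1.45) and missed the threshold (limma adjusted p = 0.0729). It was higher in R3 in 3 of 3 mice, by 1.27, 0.72 and 0.47. With the mouse as a fixed block the limma adjusted p was 0.0190, and without the R3 array of mouse 5 the change was 1.14 with an adjusted p of 0.00965. The R3 minus R2 change was 0.52 (95% interval -0.11 to 1.15) and the R2 minus R1 change 0.30 (95% interval -0.33 to 0.93).

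Rbp4, the plasma carrier of retinol, went the other way. Its values were 5.40, 6.15 and 6.51 in R3, 7.03, 8.34 and 6.27 in R2, and 9.003, 9.29 and 9.09 in R1. All R1 arrays lay above all others, R2 spread most (SD 1.05), and the R3 array of mouse 2 lay inside the range of the background guide. Rbp4 was 8.63-fold lower in R3 than in R1 (log2 change -3.11, standard error 0.46, n = 3 per gate, limma adjusted p = 0.00142).

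The R2 minus R1 change of Rbp4 was -1.91 (95% interval -2.95 to -0.88, limma adjusted p = 0.0241). It was no longer called without R2 replicate 2 (limma adjusted p = 0.0768), R2 replicate 5 (0.0608), R1 replicate 2 (0.0581), R1 replicate 4 (0.0738) or R1 replicate 5 (0.0585). Between R3 and R2 the change was -1.20 (95% interval -2.23 to -0.16, limma adjusted p = 0.202), with mouse differences of -1.63, -2.20 and 0.24. R3 was thus lower in 2 of 3 mice.

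Several marker lists of other skin cells were also lower in the papilla gates than in R1. All 16 keratinocyte genes were lower in R3 than in R1 and in R2 than in R1, with a summed level of 11.74 to 12.64 in R3, 12.04 to 12.32 in R2 and 14.87 to 15.40 in R1. Krt5, a basal keratin, was 8.09-fold lower in R3 than in R1, and Krt14, its partner, 9.65-fold. The fibroblast list summed to 15.54 to 15.59 in R3, 15.62 to 15.79 in R2 and 16.28 to 16.31 in R1, with 8 and 7 of 14 genes lower in R3 and R2 than in R1. Adipocyte genes summed to 11.92 to 12.09 in R3, 12.88 to 13.06 in R2 and 13.07 to 13.21 in R1, with 3 of 7 genes called lower in R3 than in R1 and 0 called between R2 and R1. Leukocyte markers summed to 11.25 to 11.70 in R3, 11.12 to 11.56 in R2 and 13.37 to 13.80 in R1. Other lists ran the other way, with 14 of 16 endothelial genes higher in R2 than in R1 and 6 of 10 Schwann and glial genes higher in R3 than in R1. The part of these cells in the Rbp4 result was not tested. Values of this kind have no true zero, so no marker can be given as absent.

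Stra6, the receptor for the carrier, had values of 4.48, 4.69 and 4.53 in R3, 4.24, 4.15 and 4.37 in R2, and 4.18, 4.35 and 4.30 in R1. All arrays lay under the background guide. The R3 arrays did not overlap those of R2 or R1, but the changes were small, at 0.31 against R2 (limma adjusted p = 0.204) and 0.29 against R1 (adjusted p = 0.138).

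Among the enzymes that make retinoic acid, Aldh1a3 gave signal in all gates. Its main probe set read 8.66, 8.71 and 8.74 in R3, 8.71, 8.29 and 7.89 in R2, and 7.57, 7.53 and 6.80 in R1. The R3 arrays differed little (SD 0.04), and every R3 and R2 array lay above every R1 array. Aldh1a3 was 2.65-fold higher in R3 than in R1 (log2 change 1.41, standard error 0.25, n = 3 per gate, limma adjusted p = 0.00351).

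The R2 minus R1 change of Aldh1a3 was 0.99 (95% interval 0.44 to 1.54, limma adjusted p = 0.0270). It was no longer called without R2 replicate 2 (limma adjusted p = 0.0867), R2 replicate 4 (0.0753) or R1 replicate 5 (0.0655), and in a fit of the 6 arrays of the pair (0.0633). It was also lost for the mean of the 3 Aldh1a3 probe sets, where the change was 0.56 (adjusted p = 0.0784). Between R3 and R2 the change was 0.41 (95% interval -0.14 to 0.96, limma adjusted p = 0.426), and R3 was higher in 2 of 3 mice.

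Aldh1a3 was the only member with several probe sets, and 11 probe sets covered the 9 genes. Tested singly among all probe sets with 1 gene symbol, the other two Aldh1a3 probe sets gave R3 minus R1 changes of 1.08 and 0.56 (limma adjusted p = 0.0633 and 0.0623), against 1.41 for the main one (adjusted p = 0.00448). The direction was shared by all 3, and the R3 arrays lay above the R1 arrays for each. For R2 minus R1 the other two gave 0.41 and 0.28 (limma adjusted p = 0.528 and 0.388).

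Aldh1a1, the second of these enzymes, had values of 3.98, 3.68 and 4.35 in R3, 4.30, 5.14 and 4.61 in R2, and 5.31, 6.46 and 5.03 in R1. It passed the background guide on the R1 array of mouse 4 alone, so its folds rest on dim signals. The R3 minus R1 change was -1.60 (95% interval -2.42 to -0.78, limma adjusted p = 0.0135), with mouse differences of -1.34, -2.79 and -0.68. It was no longer called without R3 replicate 4 (limma adjusted p = 0.0532). Against R1, R2 was lower in 3 of 3 mice, by a mean change of -0.91 that missed the threshold (limma adjusted p = 0.141).

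Aldh1a2, the enzyme known for retinoic acid synthesis in embryonic mesoderm, was dim and was not called in any comparison. It read 4.82, 4.73 and 4.66 in R3, 4.72, 4.51 and 3.91 in R2, and 3.51, 5.38 and 4.24 in R1, where the arrays spread most (SD 0.95). Its 95% intervals ran from -0.54 to 1.26 for R3 minus R2 and from -0.90 to 0.90 for R2 minus R1. R3 was higher than R2 in 3 of 3 mice, by 0.10, 0.22 and 0.75, and the arrays of these gates overlapped.

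The retinoic acid degrading enzymes differed in whether they were seen at all. Cyp26b1, known to remove retinoic acid in skin and limb of the mouse embryo, had values of 11.42, 11.06 and 10.56 in R3, 10.43, 10.29 and 10.27 in R2, and 10.74, 10.52 and 10.44 in R1. The R3 arrays lay above all R2 arrays, the R2 arrays lay under all R1 arrays, and R3 and R1 overlapped. The R3 minus R2 change was 0.68 (95% interval 0.23 to 1.14), higher in 3 of 3 mice, and missed the threshold (limma adjusted p = 0.0988). Without the R3 array of mouse 5, the lowest of its gate, the change was 0.91 (adjusted p = 0.0170) against R2, and 0.68 (adjusted p = 0.0245) against R1.

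With all arrays the R3 minus R1 change of Cyp26b1 was 0.45 (95% interval -0.01 to 0.90, limma adjusted p = 0.169). The R2 minus R1 change was -0.24 (95% interval -0.69 to 0.22), lower in 3 of 3 mice by 0.31, 0.23 and 0.17 but not called (adjusted p = 0.522). The array of mouse 5 was the lowest of R3 for both Crabp1 and Cyp26b1.

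Cyp26a1, a gene known to be induced by retinoic acid, stayed under the background guide on every array. Its values were 4.43, 4.48 and 4.09 in R3, 4.87, 3.89 and 4.33 in R2, and 4.66, 4.37 and 4.89 in R1. The arrays of all gates overlapped, and no change passed 0.31 in size on the log2 scale (limma adjusted p from 0.447 to 0.966).

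Promoter windows of RefSeq (GRCm38.p6, 250 bases before to 50 bases after a gene's start) were matched by symbol for 7 of the 9 genes, all but Crabp2 and Aldh1a3. They were searched on both strands for the 6-base elements of retinoic acid receptor sites (AGGTCA or AGTTCA, and likewise GGGTCA or else GGTTCA), for direct repeats of any 2 of these with a spacer of 1, 2 or 5 bases, and for TATAAA. The 4 windows shown are those of the 2 Cyp26 genes, of which one was seen and the other was not, and 1 window each of Rbp4 and Aldh1a1, the genes that were lower in R3 than in R1. They lie at chr19:37697558-37697857 (plus strand, Cyp26a1), chr6:84593761-84594060 (minus strand, Cyp26b1), chr19:38125272-38125571 (minus strand, Rbp4) and chr19:20601718-20602017 (plus strand, Aldh1a1). Each is written 5′ to 3′ along its gene, and capitals mark a element, a direct repeat with its spacer, or TATAAA.
Cyp26a1: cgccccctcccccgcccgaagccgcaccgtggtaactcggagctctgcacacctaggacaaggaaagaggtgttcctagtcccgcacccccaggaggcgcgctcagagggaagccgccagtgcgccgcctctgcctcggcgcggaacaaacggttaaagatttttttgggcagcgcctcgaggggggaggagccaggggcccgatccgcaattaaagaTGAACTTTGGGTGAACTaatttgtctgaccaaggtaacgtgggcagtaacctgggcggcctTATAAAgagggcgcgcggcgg
Cyp26b1: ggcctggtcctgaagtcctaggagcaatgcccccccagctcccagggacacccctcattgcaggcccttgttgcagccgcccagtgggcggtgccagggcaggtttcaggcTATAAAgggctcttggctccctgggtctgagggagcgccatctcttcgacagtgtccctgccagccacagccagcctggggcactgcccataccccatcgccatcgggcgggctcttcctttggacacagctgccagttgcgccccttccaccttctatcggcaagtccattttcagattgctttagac
Rbp4: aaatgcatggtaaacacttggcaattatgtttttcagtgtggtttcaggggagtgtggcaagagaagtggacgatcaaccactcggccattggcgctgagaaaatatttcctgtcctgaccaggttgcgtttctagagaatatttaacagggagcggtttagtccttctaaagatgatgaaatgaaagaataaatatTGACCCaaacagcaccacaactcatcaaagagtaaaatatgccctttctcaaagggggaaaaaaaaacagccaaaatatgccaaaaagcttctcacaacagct
Aldh1a1: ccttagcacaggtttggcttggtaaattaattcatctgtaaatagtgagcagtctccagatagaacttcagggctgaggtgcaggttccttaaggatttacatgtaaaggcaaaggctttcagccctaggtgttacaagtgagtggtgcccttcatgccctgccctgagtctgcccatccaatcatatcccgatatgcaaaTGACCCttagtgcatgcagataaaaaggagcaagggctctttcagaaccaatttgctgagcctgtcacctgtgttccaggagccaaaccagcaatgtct

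The Cyp26a1 window held a direct repeat with a spacer of 5 bases, which reads AGTTCACCCAAAGTTCA on the opposite strand and begins 32 bases before the start. Such a repeat was found in 0.0974% of 32851 windows of the same length, and the repeats with spacers of 2 and 1 bases in 0.268% and 0.222%, and each repeat also counts as 2 elements. Both Cyp26 windows held TATAAA, as 13.6% of windows did. It began at position 30 from the start in Cyp26a1 and at position -139 in Cyp26b1. The Cyp26b1 window held no element. The Rbp4 and Aldh1a1 windows shown each held 1 element, GGGTCA on the opposite strand, as against 43.7% of all windows with any element. RefSeq lists a second start for both genes, and the windows shown are those that held an element. The other Rbp4 window held TATAAA and no element, and the other Aldh1a1 window held no match. Of the genes not shown, 1 of 4 Stra6 windows held an element (AGTTCA), and the Crabp1 and Aldh1a2 windows held no match. These matches describe letters and are no measure of binding.

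**Figure D3:**
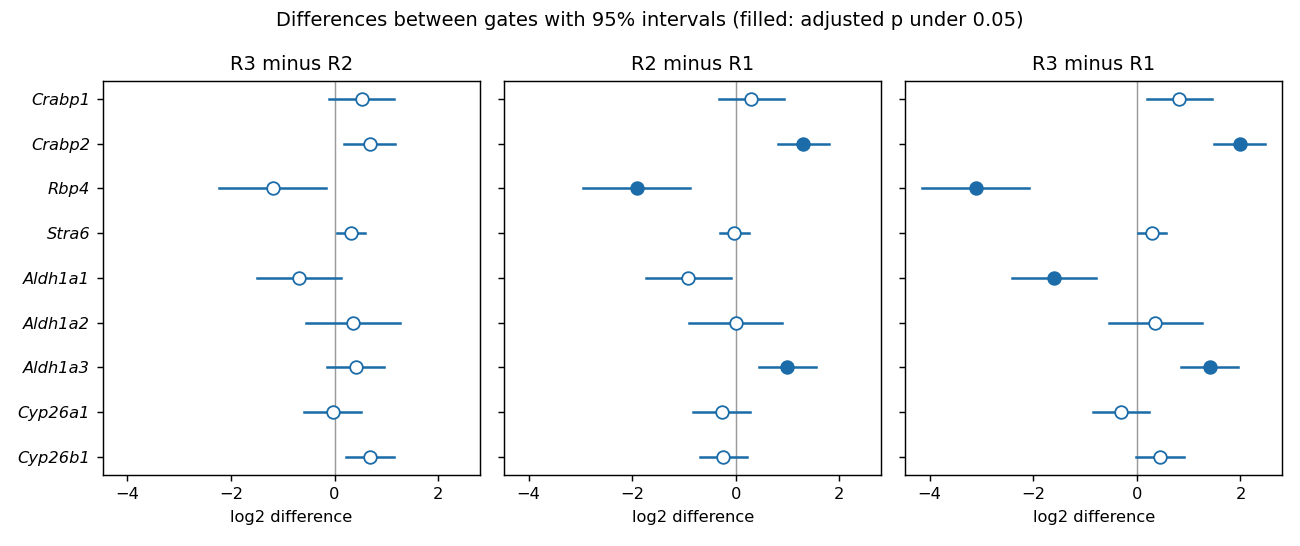
Log2 difference (x axis) of the 9 genes (rows) for R3 minus R2, R2 minus R1 and R3 minus R1, with 95% intervals from the moderated standard error. Filled points have a limma adjusted p under 0.05: none for R3 minus R2, Crabp2, Rbp4 and Aldh1a3 for R2 minus R1, and these with Aldh1a1 for R3 minus R1.

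Counted together, 0 of 9 genes were called between R3 and R2 by limma, where 5.03% of all 18193 genes were called, 1.97% higher and 3.06% lower. At an unadjusted p under 0.05, 3 of the 9 were higher in R3 (Crabp2, Stra6 and Cyp26b1) and 1 was lower (Rbp4), against 1291 higher and 1994 lower of all 18193 genes. The arrays of R3 and R2 did not overlap for 2 of 9 genes, Stra6 and Cyp26b1, against 22.7% of all genes, so this share was near the background. The median log2 change of the 9 genes was 0.36, against -0.01 over all genes. That median was the change of Aldh1a2, which passed the background guide on no array of either gate. Whether the group as a whole shifted was not tested. Without R3 replicate 5 or R2 replicate 2 the count was 1, Cyp26b1 in the first case and Crabp2 in the other.

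Between R2 and R1, 2 of 9 genes were called higher and 1 lower, against 13.1% of all genes, 6.89% higher and 6.16% lower. The arrays did not overlap for 4 of 9, against 30.8% of all genes, and the median change was -0.03, against -0.02. This median was the change of Stra6, which lay under the background guide on every array. The count was 1 without R2 replicate 2 or R1 replicate 5, and was then Crabp2. Between R3 and R1, 2 genes were called higher and 2 lower, against 18.7% of all genes, 7.90% higher and 10.8% lower. The arrays did not overlap for 5 of 9, against 34.4% of all genes, and the median change was 0.36, against -0.01. This median was again the change of the dim Aldh1a2. Leaving out 1 array gave 3 to 6 genes called between R3 and R1, with 6 without R3 replicate 5. Whether these shares differ from those of all genes was not tested. The comparisons share gates: R1 is the lower side of both papilla comparisons, and R2 stands on opposite sides of the other two.

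Over the 9 arrays the values of Crabp2 and Aldh1a3 had a Pearson r of 0.94, and those of Rbp4 and Aldh1a1 an r of 0.86, while Crabp2 and Rbp4 had an r of -0.89. The arrays share 3 gates and 3 mice, so these are descriptions of the same steps between gates. Among 2036 genes whose gate means spanned at least 1 on the log2 scale, the patterns most like that of Crabp2 were those of Plscr1 (r = 0.98), Ntrk2 (0.97) and Insl6 (0.97). Those most like Aldh1a3 were Per3 (0.97), Cacna1h (0.97) and Gdf10 (0.97). Those most like Rbp4 were S100a8 (0.99), Atp2a3 (0.99) and Cdca8 (0.99), and those most like Aldh1a1 were Dctd (0.97), Slc4a11 (0.96) and Pheta2 (0.94), each over 9 arrays.

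Of 32 other measured genes of retinoid uptake, storage and oxidation, 8 were lower and 1 was higher in R3 than in R2 (median change -0.07). That was 28.1% of the list, against 5.03% of all genes. The higher one, named after its values were seen, was Sdr16c5, a retinol dehydrogenase, which averaged 4.05 in R3, 2.38 in R2 and 4.87 in R1, all under the range of the background guide (limma adjusted p = 0.0462 for R3 against R2). The count was 5 without R3 replicate 2, R2 replicate 2 or R2 replicate 4. Against R1, R2 had 5 higher and 4 lower (median -0.11), which was 28.1% of the list against 13.1% of all genes. R3 had 1 higher and 7 lower than R1 (median -0.09), which was 25% against 18.7%. The differences between these shares were not tested.

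Several of these genes peaked in R2. Lrat, which stores retinol as its ester, had values of 4.60, 5.12 and 4.69 in R3, 6.29, 7.71 and 7.62 in R2, and 5.14, 4.54 and 4.56 in R1. Its R2 arrays stood above all others, which did not pass the top of the background guide. Its R3 minus R2 change was -2.40 (standard error 0.36, limma adjusted p = 0.00409) and its R2 minus R1 change 2.46 (adjusted p = 0.00178). Every R3 and R1 array of Lrat lay under its own guide, so the size of these changes is set by background signal on one side and is not given as a fold.

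Dhrs3, an enzyme that reduces retinaldehyde to retinol, read 8.75, 8.41 and 8.27 in R3, 9.83, 10.08 and 9.79 in R2, and 8.65, 8.51 and 8.14 in R1. R2 stood apart, and R3 and R1 overlapped. Its R3 minus R2 change was -1.42 (limma adjusted p = 0.00159) and its R2 minus R1 change 1.47 (adjusted p = 0.000652). Rbp7, a cellular retinol binding protein, read 6.70, 7.02 and 6.83 in R3, 9.54, 8.58 and 8.92 in R2, and 7.40, 7.66 and 7.60 in R1. Its R3 level was 4.48-fold below that of R2 (limma adjusted p = 0.000524).

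Rdh5, a retinol dehydrogenase, averaged 6.64 in R3, 8.02 in R2 and 6.06 in R1, and was 3.89-fold higher in R2 than in R1 (limma adjusted p = 0.00131). Its R3 minus R2 change of -1.37 (limma adjusted p = 0.0182) was not called without R3 replicate 2 (0.0709), R2 replicate 2 (0.0539) or R2 replicate 4 (0.0651). Cd36, a lipid scavenger receptor that can take up carotenoids, averaged 8.81 in R3, 10.58 in R2 and 10.41 in R1. Its R3 level was 3.40-fold below that of R2 (limma adjusted p = 0.00358) and 3.03-fold below that of R1 (adjusted p = 0.00214). Between R2 and R1, Cd36 changed by 0.17 and was not called (adjusted p = 0.747), so it was low in R3 without a peak in R2.

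Endothelial markers peaked in R2 as well. Of 16 such genes, 15 were lower in R3 than in R2 and 14 were higher in R2 than in R1, with a summed level of 10.39 to 10.74 in R3, 12.59 to 12.83 in R2 and 10.95 to 11.24 in R1. Pecam1, an adhesion molecule of endothelium, had an R3 level 7.19-fold below that of R2. Rbp7 and Cd36 are also known from endothelium, though Cd36 was not called between R2 and R1. Schwann and glial markers ran the other way, with 9 of 10 genes higher in R3 than in R2. The part of these cells in the R2 values was not tested.

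Adh7, an alcohol dehydrogenase that can oxidise retinol, read 7.23, 7.16 and 7.63 in R3, 8.59, 8.14 and 8.23 in R2, and 9.65, 9.81 and 9.43 in R1, with no overlap between gates. It was 4.89-fold lower in R3 than in R1 (limma adjusted p = 3.7e-05) and 2.48-fold lower in R2 than in R1 (adjusted p = 0.00131). Its R3 minus R2 change of -0.98 (adjusted p = 0.0129) was not called without R3 replicate 2 (0.0537) or R3 replicate 4 (0.0571), or for the mean of its probe sets (0.119). Adh1, its relative, averaged 5.50 in R3, 6.11 in R2 and 8.61 in R1, and was 8.63-fold lower in R3 than in R1 (adjusted p = 0.000618). Its R3 array of mouse 4 (4.79) and R2 array of mouse 5 (5.19) lay under their own background guide. Background signal thus enters these 2 averages and limits the size of the fold. Lpl, a lipase that frees lipids from circulating particles, averaged 9.59 in R3, 10.11 in R2 and 12.02 in R1 and was 5.37-fold lower in R3 than in R1 (adjusted p = 0.000145). The marker lists given beside Rbp4 moved in the same direction, and their part in these values was not tested.

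Rdh10, the retinol dehydrogenase of embryonic retinoic acid synthesis, averaged 10.16 in R3, 10.13 in R2 and 9.66 in R1 and was not called in any comparison (limma adjusted p from 0.124 to 0.964).

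**Figure D4:**
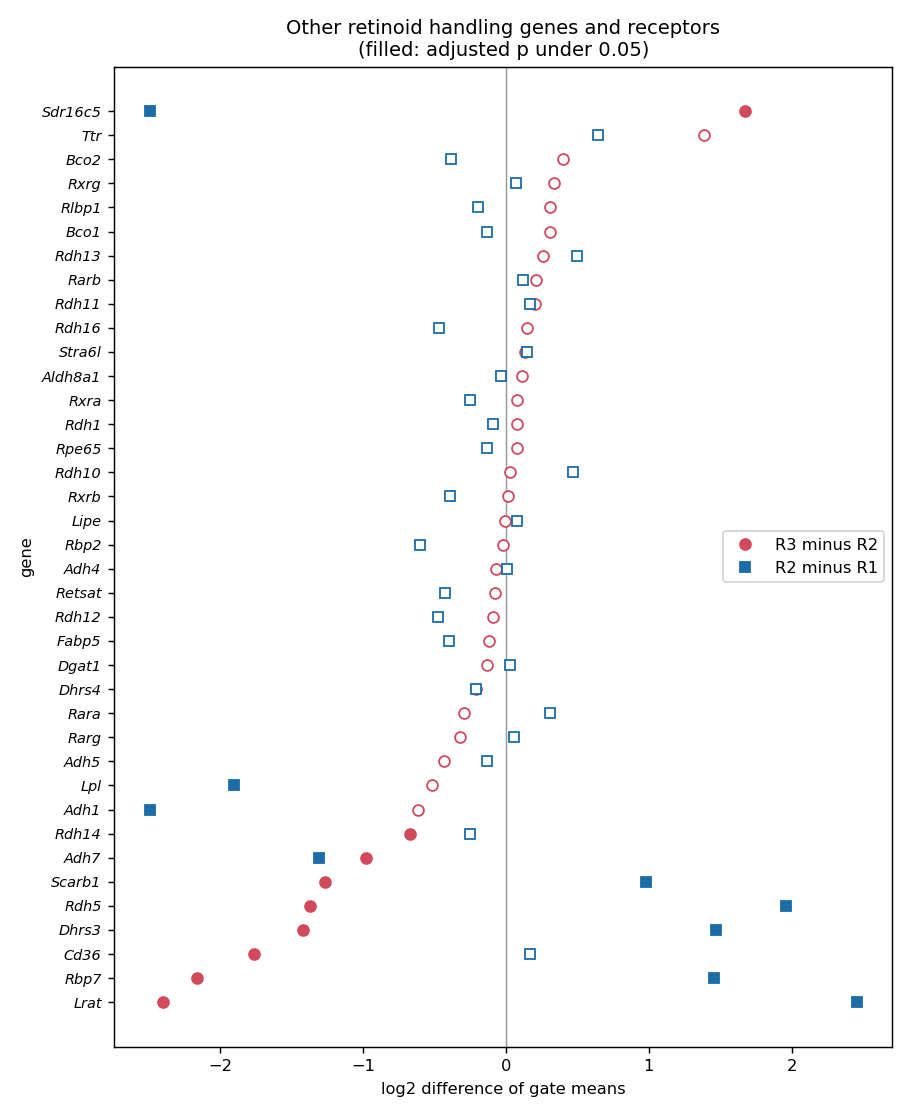
Log2 difference (x axis) of 32 other retinoid handling genes and 6 retinoid receptors (rows, ordered by R3 minus R2), for R3 minus R2 (circles) and R2 minus R1 (squares); filled points have a limma adjusted p under 0.05. Lrat, Rbp7, Dhrs3 and Rdh5 stand left of 0 for R3 minus R2 and right of 0 for R2 minus R1, and the 6 receptors lie near 0 with open points.

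Limma called 0 of the 6 retinoic acid and retinoid X receptors in any comparison. Of all genes it called 5.03% for R3 against R2, 13.1% for R2 against R1 and 18.7% for R3 against R1. A list of 6 genes is too short to tell 0 calls from these shares. At an unadjusted p under 0.05, 1 receptor was higher in R3 than in R2. Likewise 1 was higher in R3 than in R1, and 0 passed between R2 and R1. Of all 18193 genes, 1291 were higher in R3 than in R2 and 2427 higher in R3 than in R1 at that threshold. Rara averaged 8.24 in R3, 8.54 in R2 and 8.23 in R1, and Rarg averaged 7.66 in R3, 7.98 in R2 and 7.93 in R1. Rarb, itself a known target of retinoic acid, averaged 4.79 in R3, 4.58 in R2 and 4.46 in R1, under the range of the background guide.

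Of 15 measured genes on a list of known retinoic acid targets, 2 were higher and 4 lower in R3 than in R2 (median change 0.10), against 5.03% of all genes called. Dhrs3, 1 of the 4 lower genes, is also counted among the retinoid handling genes above. Against R1, R2 had 3 higher and 1 lower (median 0.18), which was 26.7% of the list against 13.1% of all genes. R3 had 2 higher and 4 lower than R1 (median -0.08), which was 40% against 18.7%. The differences between these shares were not tested. Tgm2, a transglutaminase, averaged 8.44 in R3, 10.74 in R2 and 10.31 in R1, with R3 4.91-fold below R2 (limma adjusted p = 0.000131). Its R3 level was also 3.64-fold below that of R1 (limma adjusted p = 0.000156). Rarres1, named for its response to retinoic acid receptors, averaged 7.72 in R3, 9.68 in R2 and 8.03 in R1 with R3 3.89-fold below R2 (adjusted p = 0.000385). Hoxb4, a homeobox factor, averaged 8.06 in R3, 8.99 in R2 and 8.82 in R1, with R3 1.92-fold below R2 (adjusted p = 0.00250). Its R3 level was also 1.70-fold below that of R1 (limma adjusted p = 0.00280). Tgm2 is also known from endothelium, whose markers differed in the same direction between R3 and R2, as given above. Between R2 and R1, Tgm2 changed by 0.43 and was not called (limma adjusted p = 0.183). The part of endothelial cells in the Tgm2 values was not tested.

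Rarres2, which encodes the secreted protein chemerin, was lowest in R2, with 9.29, 8.93 and 9.002 in R3, 8.54, 8.04 and 8.30 in R2, and 10.92, 10.57 and 10.54 in R1. It was 5.23-fold lower in R2 than in R1 (limma adjusted p = 4e-05). The R3 minus R2 change of Rarres2 was 0.78 (limma adjusted p = 0.0333) and was not called without R3 replicate 2 (0.111), R3 replicate 4 (0.0637), R3 replicate 5 (0.0637), R2 replicate 4 (0.119) or R2 replicate 5 (0.0817), in a fit of 6 arrays (0.0550) or for the mean of its probe sets (0.0745). Nrip1, a nuclear receptor corepressor, was 2.04-fold higher in R3 than in R1 (limma adjusted p = 0.00217). Tshz3, a zinc finger factor, was higher than in R1 in both papilla gates. It was 1.87-fold higher in R3 (limma adjusted p = 0.00454) and 1.74-fold higher in R2 (adjusted p = 0.0121). Its R3 minus R2 change was 0.10 and was not called (limma adjusted p = 0.800). Between R3 and R2, Nrip1 and Rarres2 were the 2 higher genes of the list. The R3 minus R2 change of Nrip1 was 0.80 (limma adjusted p = 0.0230) and was not called without R3 replicate 2 (0.0840), R3 replicate 4 (0.0834), R2 replicate 2 (0.0505) or R2 replicate 4 (0.0899).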

How the data were processed

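RNA of the sorted cells was amplified and biotin-labelled for 1-colour arrays, per the labels' protocols. The authors deposited log2 expression values per probe set, made with RMA per the submitters' processing notes; its version, and whether the 9 arrays were normalized together, is not given in the sources used here. RMA's quantile step and the amplification can compress folds, and RMA gives no detection call.

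Of 45101 probe sets, 34945 with 1 gene symbol in the platform annotation were used, and 932 with several symbols were left out. Each of 18193 genes took its brightest probe set. The limma fit (version 3.58.1, R 4.3.3; lmFit, then contrasts.fit, then eBayes) took all genes, had 9.49 total degrees of freedom and used 1 coefficient per gate, no mouse block, no filter and Benjamini-Hochberg adjustment over all genes of a comparison; a call needs an adjusted p below 0.05. The test was checked on simulated data for R3 against R2. In that simulation 200 of 18193 genes were changed in R3, with noise drawn independently for each array. The test recovered 8% of 1.5-fold changes, 64% of 2-fold changes and 96% of 4-fold changes, with 10 false calls among 144. The data gave 915 calls for this comparison, so the adjustment was less strict there and these rates may not hold for the data. A change of 1.5-fold was mostly missed in the simulation, and a gene that was not called may still differ. The members, lists and tests were chosen with earlier results of these data known.

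Arrays that share a number share a mouse, per the labels, and are paired. Their deviations from gate means correlated at 0.01 to 0.18, against -0.16 to 0.04 between mice. Such deviations cancel out within a gate, so the values between mice offset those within mice and are no independent reference. Of the 3 gene lists besides the members, up to 4 called genes per comparison with the lowest p were named, with Dhrs3, Rdh10, Rara, Rarb and Rarg whatever their values, besides Prom1 and Sox2; markers were named where a result moved with them. The genes most alike were the 3 with the highest Pearson r per called member. Alternatives were a mouse block (fixed or random), leaving out each array, fitting 6 arrays, other scalings, the mean of probe sets, genes above the median gene, and a trend with robust variance. Array number limits the precision. Python 3.11.15, pandas 2.3.3 and matplotlib 3.10.9 made tables and plots.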

Additional observations from a re-analysis of the deposited data

How the results depend on the processing

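The 27 member changes were refitted under 17 alternatives; 430 refits kept the call or its absence, 11 lost a call, 6 gained one and 0 turned a called direction. Dim members took no part in the setting of genes above the median gene, where the R3 minus R1 change of Crabp1 was called (limma adjusted p = 0.0400). Leaving out 1 array gave 582 to 841 genes called between R3 and R2 against 915 in all, with 592 without R3 replicate 4, 596 without R2 replicate 2 and 582 without R2 replicate 4. Between R2 and R1 it gave 1554 to 2418 against 2375, the lowest without R2 replicate 4. Of the members, 0 to 1 were called between R3 and R2, 1 to 3 between R2 and R1 and 3 to 6 between R3 and R1. Of the other retinoid handling genes 5 to 9 were called between R3 and R2, and of the receptors 0 to 1 between R3 and R1 (1 without R1 replicate 4). With the mouse as a fixed replicate block 0, 3 and 5 members were called for R3 against R2, R2 against R1 and R3 against R1, and with a random block 0, 3 and 4; beyond that of Crabp1 for R3 against R1, the block changed no call of a member. Of 46 calls of the named list, gate and marker genes, 40 were kept under every alternative that tested the gene. Background signal limits Stra6, Cyp26a1, Aldh1a1 and Aldh1a2.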
